A study of Mus musculus with 24 samples.

Results

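The comparison described here set the 6 AhR-KO LPS libraries against the 6 WT LPS libraries, 12 of the 24 ATAC-seq libraries of the series, chosen by genotype and treatment label alone. ATAC-seq cuts and tags open DNA with a transposase, so that reads pile up where chromatin is accessible. All libraries came from bone marrow-derived macrophages (BMDMs) grown with 10 ng/ml GM-CSF and 2 ng/ml TGF-β, growth factors that push marrow cells towards an alveolar macrophage-like state. WT marrow came from C57/B6/J mice and AhR-KO marrow from mice with the disrupted Ahr allele tm1Bra in every cell. Per the study's methods, which cover all its experiments, the mice were young adults of both sexes matched for age and sex. The methods do not say which sex each library came from. Each group held 6 animals. The stimulated cells received 97 EU/ml LPS on day 6 for 24 h and then the calcium ionophore A23187 at 5 µM for 10 min. The other 12 libraries, from unstimulated cells of both genotypes, entered the fit and are quoted beside single peaks and the most strongly lowered ones.

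The aryl hydrocarbon receptor (AhR) is a transcription factor of the bHLH-PAS family that rests in the cytoplasm, moves to the nucleus when it binds a small molecule and pairs there with ARNT on sites with the core GCGTG. Its target Ahrr encodes a repressor that competes with AhR for ARNT. In macrophages LPS acts through TLR4 and opens many regions bound by NF-κB, AP-1 and interferon-driven factors. Because the disrupted Ahr allele was made in cells of another mouse strain and then crossed in, DNA near Ahr on chromosome 12 can still come from that strain, so peaks whose centre lay between 15.5 and 55.5 Mb of that chromosome are given apart from the rest of the genome.

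A peak is called a differentially accessible region (DAR) where its fold change was at least 1.5 and its adjusted p at most 0.05 (edgeR's quasi-likelihood test, Benjamini-Hochberg over 174193 tested peaks). Lower and higher always mean AhR-KO relative to WT. A level in CPM is a peak's share of its library's TMM-scaled total, expressed per M (mega) counts, and positions are on mm10.

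Sequence around an extended AhR motif, TTGCGTG, was read at the 20 lower peaks named below for their p. Whole peaks, of unequal length, were searched, and the motif was found, outside annotated untranslated regions, at 3 of them. Its share over all whole peaks was not counted, so whether 3 of 20 is an excess was not tested. The shares of this motif given further below are for the centre of each peak only and cannot be set beside this count. Each line gives 81 bases 5′ to 3′ from GRCm38.p6 with the motif in capitals, and they are shown because the motif is the site AhR is known for. The Fam53b stretch is chr7:132799990-132800070 on the plus strand in an intron, the Tiam2 stretch is chr17:3453428-3453508 on the plus strand within a peak that reaches an exon, and the Cd24a stretch is chr10:43581424-43581504 on the minus strand at the edge of a peak over the TSS.
Fam53b: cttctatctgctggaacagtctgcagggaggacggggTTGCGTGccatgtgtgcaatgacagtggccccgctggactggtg
Tiam2: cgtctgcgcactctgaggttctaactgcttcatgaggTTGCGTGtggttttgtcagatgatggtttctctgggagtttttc
Cd24a: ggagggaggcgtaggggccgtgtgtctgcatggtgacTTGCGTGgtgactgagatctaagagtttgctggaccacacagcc

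The AP-1 motif, TGANTCA, was the one whose share differed most, in percentage points, between higher and lower DARs (values below). Whole peaks, of unequal length, were searched for this motif too, and its share over all whole peaks was not counted. The motif stood, outside untranslated regions, in 6 of the 20 lower and 13 of the 20 higher peaks named for their p. The first of these in each direction are shown, all on the plus strand: chr3:20305232-20305312 nearest to Cpb1 and chr4:144909023-144909103 in Dhrs3, both lower, and chr5:101250861-101250941 nearest to Gpat3 and chr1:123937993-123938073 in Dpp10, both higher. The Gpat3 peak held 5 matches and the Dpp10 peak 3, against 1 each at Cpb1 and Dhrs3.
Cpb1: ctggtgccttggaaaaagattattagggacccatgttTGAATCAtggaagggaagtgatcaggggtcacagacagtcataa
Dhrs3: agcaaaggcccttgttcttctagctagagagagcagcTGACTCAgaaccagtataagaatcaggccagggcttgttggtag
Gpat3: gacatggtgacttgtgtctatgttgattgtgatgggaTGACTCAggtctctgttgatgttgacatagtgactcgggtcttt
Dpp10: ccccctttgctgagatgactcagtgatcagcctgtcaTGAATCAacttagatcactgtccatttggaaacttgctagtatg

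Total counts in peaks ran from 25.1 to 34.6 M (mega) in WT LPS and from 22.4 to 28.5 M in AhR-KO LPS. Peaks over the TSS of macrophage markers were at like levels in both genotypes: for 9 of 10 genes with such a peak, the summed level was 204 to 221 CPM in WT and 189 to 239 CPM in AhR-KO. The markers of alveolar macrophages summed to 58.8 to 73.0 CPM in WT and 68.7 to 86.0 CPM in AhR-KO. No T and NK cell or erythroid marker had a tested TSS peak. The summed level of other marker lists with TSS peaks was 34.7 to 52.0 CPM in WT and 43.4 to 51.4 CPM in AhR-KO for neutrophils and progenitors, 0.3 to 0.586 and 0.198 to 0.365 CPM for B cells, 9.32 to 13.9 and 7.20 to 9.80 CPM for mast cells and basophils, and 15.8 to 17.4 and 17.7 to 19.8 CPM for stroma. WT LPS replicate 6 held 86.7 CPM on chromosome Y against 193 to 253 CPM in the other 11 LPS libraries, so every LPS library held chromosome Y signal.

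Outside the Ahr region, 22390 of 171956 tested peaks were lower DARs (13%) and 22972 were higher DARs (13.4%). The groups did not overlap at 19.5% of the peaks. The even split hid a difference by size of change. Among DARs of 1.5- to 2-fold 41.4% were lower, among those of 2- to 4-fold 53.2%, and among those of 4- to 8-fold 92.6%, or 2440 against 195. At 8-fold or more there were 596 lower and 1 higher. The single higher one was a short peak in an intron (chr11:78957814-78957994). Its nearest TSS, 26837 bases away, was that of Lgals9, the gene of galectin-9, which need not be the gene that holds the intron. The higher TSS peak of Nos2 described below lies on the same chromosome (chr11:78924302-78926369). The short peak held 0.0861, 0.212 and 0.275 CPM as the lowest, median and highest WT value and 1.13, 1.63 and 2.32 CPM in AhR-KO.

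**Figure D1:**
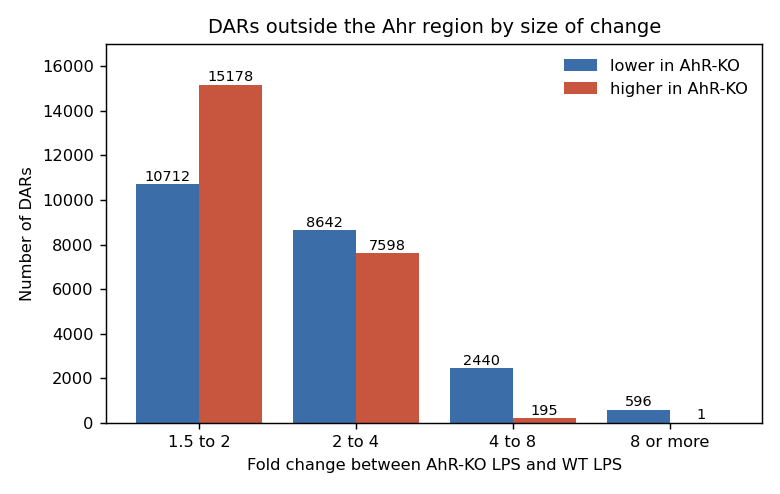
Number of DARs outside the Ahr region (y axis) by fold change between AhR-KO LPS and WT LPS (x axis), with lower DARs in blue and higher DARs in red. Higher DARs outnumber lower ones from 1.5- to 2-fold (15178 against 10712), and of the 597 DARs of at least 8-fold, 596 are lower.

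Position in the gene mattered as well. Peaks over a protein-coding TSS changed least often and mostly downwards: 735 of 13363 (5.5%) were lower DARs and 196 (1.47%) higher. In introns 13.8% were lower and 13.6% higher, while between genes 13.3% were lower and 15.7% higher. Beyond 50000 bases from any TSS, 18.1% of peaks were higher DARs and 13.9% lower. Of 18235 genes nearest to a tested peak, 4087 had lower DARs only, 3476 higher DARs only, 4244 both and 6428 neither.

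The 10 lower peaks with the smallest p away from a TSS included peaks of Ahrr, of the leukotriene enzyme gene Alox5 and of the retinoid enzyme gene Dhrs3. They were chosen for their p among DARs with groups that did not overlap, so the gap itself is not a finding. An intronic Ahrr peak (chr13:74288783-74289981) held 4.82, 6.54 and 8.62 CPM as the lowest, median and highest of the 6 WT libraries and 0.430, 0.598 and 0.733 CPM in AhR-KO, a log2 fold change of -3.51 (SE 0.174, edgeR adjusted p 3.79e-17). It was called as a peak in all 6 WT lists and in 0 AhR-KO lists. The peak over the Ahrr TSS (chr13:74291782-74292673) fell by 2.27 on the log2 scale, from 10.1, 11 and 12.8 CPM to 2.04, 2.38 and 2.51 CPM (SE 0.105, edgeR adjusted p 5.72e-18). Ahrr had 8 lower and 0 higher DARs among its 10 tested peaks.

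Alox5 encodes 5-lipoxygenase, the first enzyme of leukotriene synthesis. An intronic Alox5 peak (chr6:116455634-116456315) held 17.3, 20.4 and 22.1 CPM in WT and 7.04, 7.41 and 8.65 CPM in AhR-KO, a log2 fold change of -1.39 (SE 0.0671, edgeR adjusted p 1.77e-17). Without LPS the same peak differed by -0.06 (edgeR adjusted p 0.510), and the difference between the genotype effects with and without LPS was -1.34 (edgeR adjusted p 3.16e-12). Dhrs3, a retinal reductase, showed the same order of values in an intron (chr4:144908699-144909443): 27.9, 30.1 and 32.6 CPM in WT against 11.7, 12.8 and 15.4 CPM in AhR-KO (log2 fold change -1.21, SE 0.0601, edgeR adjusted p 3.79e-17), and 0.10 without LPS (edgeR adjusted p 0.193). The peak over the Alox5 TSS was lower in both treatments. Its log2 fold change was -0.77 with LPS and -0.55 without LPS (edgeR adjusted p 4.7e-11 and 1.58e-08). The difference between these effects was -0.22 (edgeR adjusted p 0.118).

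At the Fam53b peak whose sequence is shown above, the genotype effect had opposite signs in the 2 treatments. It held 14.6, 16.2 and 17.4 CPM in WT LPS and 5.13, 6.43 and 6.96 CPM in AhR-KO LPS (log2 fold change -1.37, SE 0.0786, edgeR adjusted p 1.98e-15), with 0.36 without LPS (edgeR adjusted p 3.51e-05). The other 6 lower peaks of this kind lay nearest to Cpb1, Sstr4, Shisa5 (in an intron of Pfkfb4), Hmgb1, Ldhd (in an intron of Znrf1) and Tiam2, with log2 fold changes of -1.07 to -1.62. All 10 passed the limits for a difference between the genotype effects with and without LPS, as did 10.4% of all tested peaks outside the Ahr region.

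**Figure D2:**
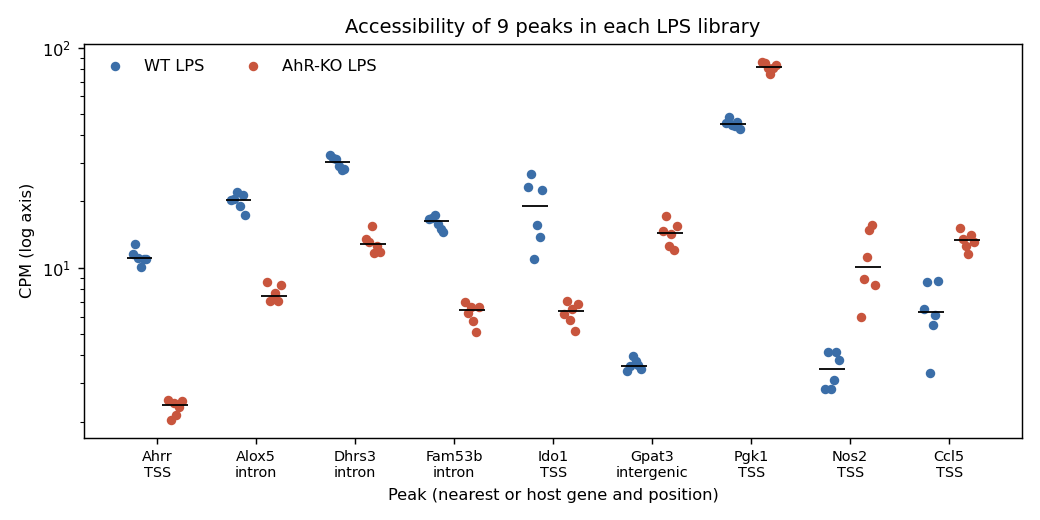
CPM (y axis, log scale) of 9 peaks in each LPS library, with WT in blue, AhR-KO in red and a black line at each group's median. The 6 libraries of one genotype lie on one side of the 6 of the other at each of the 9 peaks, which were chosen for their change.

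The higher peaks with the smallest p away from a TSS lay 9503 to 403967 bases from the nearest TSS. The first lay 403967 bases from the TSS of Gpat3, a glycerol-3-phosphate acyltransferase of triglyceride synthesis (chr5:101250332-101251248). It held 3.39, 3.59 and 3.96 CPM in WT and 12, 14.5 and 17.2 CPM in AhR-KO, a log2 fold change of 1.98 (SE 0.102, edgeR adjusted p 9.54e-17). A Dpp10 intronic peak (chr1:123937911-123938989) rose from 1.26, 1.96 and 2.51 CPM to 8.35, 9.76 and 10.2 CPM (log2 fold change 2.25, SE 0.121, edgeR adjusted p 3.2e-16), and was called in 1 WT list and all 6 AhR-KO lists. The others lay nearest to Schip1, the semaphorin receptor gene Nrp1, Ypel2, Adra1a, the activin subunit gene Inhba, Lims1, the cell fusion gene Dcstamp and Akna, with log2 fold changes of 1.09 to 1.69. Of these 10, the 4 nearest to Gpat3, Dpp10, Schip1 and Nrp1 passed the limits for a difference from the effect without LPS.

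Among TSS peaks, the lower ones after Ahrr were those of Ccno, Phactr2, the homeobox gene Pknox2, the exchanger gene Slc24a3, the adaptor gene Bank1, Cd24a, the homeobox gene Gsc, Nsmaf and the tetraspanin gene Tspan14, with log2 fold changes of -0.71 to -1.49. The Tspan14 peak held 72.2, 78.6 and 85.8 CPM in WT and 45, 49.1 and 51.8 CPM in AhR-KO. The first of the higher TSS peaks was that of the glycolytic enzyme gene Pgk1 (chrX:106186461-106188209), with 42.8, 44.8 and 48.5 CPM in WT and 76.0, 82.0 and 86.1 CPM in AhR-KO. Its log2 fold change was 0.86 with LPS (SE 0.0435, edgeR adjusted p 6.4e-17) and 0.86 without. It was the 1 DAR of 6 tested peaks nearest to Pgk1. Of the 18 TSS peaks of the glycolysis, hypoxia and itaconate list it was also the 1 DAR. Whether its counts came from this locus alone was not tested. The other higher TSS peaks were those of Atp13a4, Pgap2, Cgref1, Phf11d, Als2cr12, Txndc2, Prkg2 and the olfactory receptor genes Olfr736 and Olfr961, at 0.78 to 2.05. Olfactory receptor and Phf11 genes have close copies, so counts at these peaks may be split among copies.

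Runs of DARs in one direction gathered around some genes, and peaks of 1 gene are not separate evidence. Lower DARs were most in excess near the chromatin remodeller gene Arid1b (37 lower and 3 higher of 110 tested peaks), Rapgef5 (31 and 0 of 115), Cdkal1 (30 and 2 of 64), Zfp386 (30 and 5 of 186), the forkhead factor gene Foxp1 (29 and 5 of 106), Dscam (25 and 1 of 48), Gsdmc (26 and 3 of 68) and Syne1 (26 and 3 of 49). These were ranked by number, so genes with many peaks are favoured, and near Zfp386 the share of lower DARs was close to the 13% of all peaks. Higher DARs were most in excess near Pcdh7 (47 higher and 2 lower of 98), Flrt2 (42 and 3 of 78), Tlr4 (39 and 0 of 101), Flrt3 (42 and 5 of 105), Cblb (38 and 1 of 99), the lysosome and osteoclast factor gene Mitf (38 and 1 of 87), Dst (36 and 0 of 72) and Plcb1 (36 and 1 of 68). The peak over the Tlr4 TSS itself held 71.7, 76.2 and 80.9 CPM in WT and 73.3, 77.3 and 81.9 CPM in AhR-KO (log2 fold change 0.02, edgeR adjusted p 0.815).

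Of 25 gene lists, 7 had more lower than higher DARs among the peaks nearest to their genes. Tryptophan and kynurenine enzymes had the largest share of lower DARs among the 25 lists. They had 30 lower and 18 higher DARs of 143 tested peaks (21% and 12.6%, beside 13% and 13.4% of all peaks). The TSS peaks of 4 of the 11 genes with one were lower DARs and 0 higher, beside 5.5% and 1.47% of all TSS peaks: Ido1, which starts tryptophan breakdown, Kmo, Il4i1 and Haao. The Ido1 peak (chr8:24595127-24597380) held 10.9, 19 and 26.7 CPM in WT and 5.17, 6.33 and 7.06 CPM in AhR-KO (log2 fold change -1.59, SE 0.169, edgeR adjusted p 3.68e-08). The Kmo TSS peak went from a median of 23 to 8.65 CPM (log2 fold change -1.29) and that of Il4i1 from 23.5 to 13.1 CPM (-0.93).

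Genes of TGF-β signalling had 73 lower and 35 higher DARs of 458 peaks (15.9% and 7.64%, beside 13% and 13.4% of all peaks). Of the lower ones, 15 lay nearest to Smad7, the inhibitory SMAD. Retinoid genes had 49 lower and 39 higher of 274 (17.9% and 14.2%). Of these, 19 lower ones lay nearest to the retinoic acid receptor gene Rarb and 23 higher ones nearest to Cyp26b1. The TSS peaks of Aldh1a3 and Cyp26a1 were lower. The list of classical AhR targets had 17 lower and 14 higher of 121 (14% and 11.6%, beside 13% and 13.4% of all peaks). Of the 67 in the gene body or 5 kb upstream, 14 were lower and 3 higher. The share over all such peaks is not given here. Counted by nearest TSS, Ahrr had 8 of the 17 lower DARs, and Cyp1b1 had 6 lower and 5 higher DARs of 16 tested peaks. By the same count Tiparp had 0 lower and 6 higher of 26, Nqo1 0 and 1 of 7, and Ugt1a6a 0 and 0 of 11. Cyp1a1 had 0 DARs among 3, and the Serpinb2 TSS peak was higher (0.66).

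Arginine metabolism had the largest share of higher DARs among the 25 lists. It had 50 higher and 6 lower of 131 peaks (38.2% and 4.58%, beside 13.4% and 13% of all peaks). At the TSS of Nos2, the inducible nitric oxide synthase gene (chr11:78924302-78926369), WT held 2.81, 3.45 and 4.16 CPM and AhR-KO 5.99, 10.0 and 15.6 CPM (log2 fold change 1.64, SE 0.193, edgeR adjusted p 9.05e-08). Without LPS the difference was 0.04 (edgeR adjusted p 0.934). Slc7a2, an arginine transporter gene, had 17 higher DARs and a higher TSS peak (0.72, SE 0.125, edgeR adjusted p 1.23e-05).

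Interferon-stimulated genes, without Rsad2 and Cmpk2 in the Ahr region, had 52 higher and 8 lower DARs of 158 peaks (32.9% and 5.06%). Over all peaks outside that region the shares were 13.4% and 13%. The TSS peak of 1 of 21 genes was a DAR, that of Ifi44 (7.46, 10.2 and 12.2 CPM in WT, 14.2, 15.4 and 18.4 CPM in AhR-KO, log2 fold change 0.66, edgeR adjusted p 0.000109), while 7 of the 8 peaks nearest to Oasl1 were higher. Toll-like receptor and NF-κB genes had 93 higher and 29 lower of 465 peaks (20% and 6.24%). Of the higher ones, 39 lay nearest to Tlr4 and 18 nearest to Nfkb1. Of the list's 24 TSS peaks 0 were DARs, a count too small to set against the low share among all TSS peaks. Cytokine genes had 65 higher and 29 lower of 296 (22% and 9.8%). Of these, 24 higher ones lay nearest to Il15 and 11 lower ones nearest to Il12b. Of the 17 TSS peaks of cytokine genes 0 were DARs, again too few to set against the share among all TSS peaks. Among chemokines, the TSS peak of Ccl5 was the 1 DAR of 17: 3.33, 6.30 and 8.70 CPM in WT and 11.6, 13.3 and 15.2 CPM in AhR-KO, a log2 fold change of 1.05 (SE 0.153, edgeR adjusted p 1.67e-06) against -0.59 without LPS (edgeR adjusted p 0.356).

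Eicosanoid genes, the subject of the study, went both ways, with 58 lower and 77 higher DARs of 434 peaks (13.4% and 17.7%, beside 13% and 13.4% of all peaks). The lower ones included 8 of 16 peaks nearest to Alox5 (1 higher) and 7 of 20 nearest to Ptgs1 (0 higher). They also included 9 of 20 nearest to the prostaglandin D synthase gene Hpgds (0 higher). Near the prostaglandin E receptor gene Ptger4, 14 of 75 were lower and 8 higher. The higher ones included 20 of 80 nearest to the phospholipase gene Pla2g4a (6 lower). Near Ptgs2, the inducible cyclooxygenase gene, 15 of 31 were higher and 1 lower. Near Hpgd, whose enzyme breaks prostaglandins down, 13 of 18 were higher and 1 lower. Of 17 TSS peaks, that of Alox5 was lower (log2 fold change -0.77, SE 0.0686, edgeR adjusted p 4.7e-11) and that of Hpgd higher (0.71, SE 0.119, edgeR adjusted p 7.62e-06). Scavenger and efferocytosis receptors had 77 higher and 19 lower of 309 peaks (24.9% and 6.15%). Of the higher ones, 16 lay nearest to Msr1 and 15 nearest to Cd36. Lysosome genes had 53 higher and 12 lower of 272 (19.5% and 4.41%), 38 of the higher ones nearest to Mitf.

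**Figure D3:**
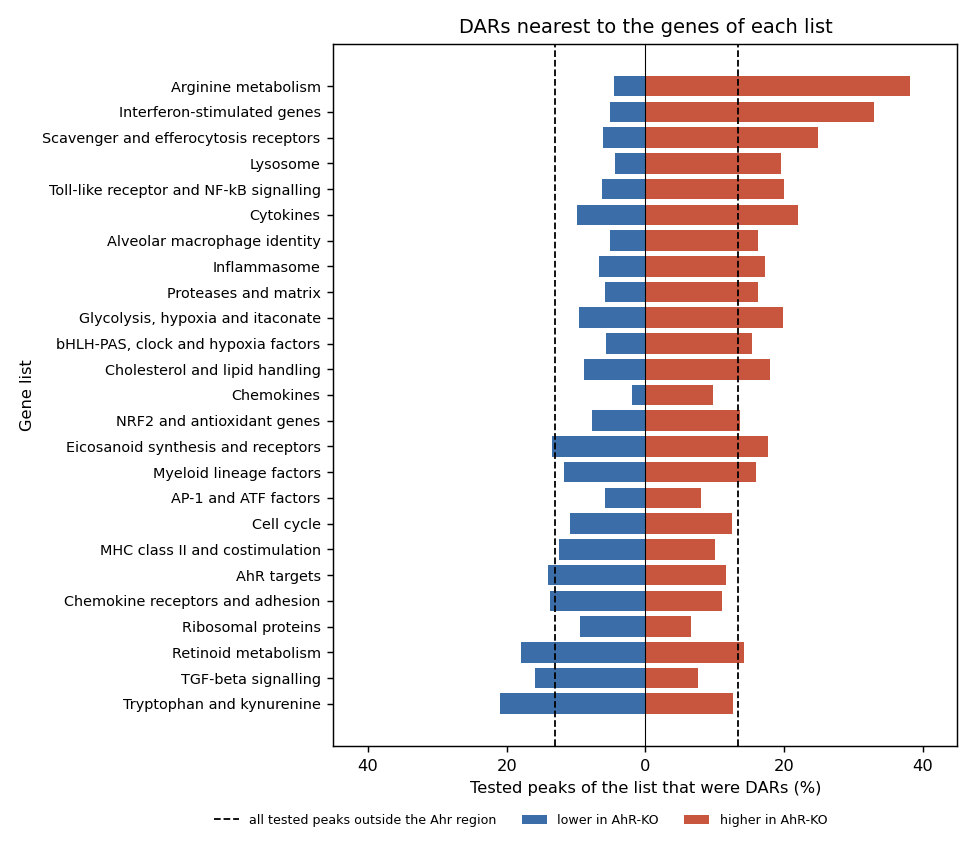
Percent of tested peaks nearest to the genes of each of 25 lists that were lower DARs (blue, to the left) or higher DARs (red, to the right), with dashed lines at the shares of all tested peaks outside the Ahr region (13% and 13.4%). Arginine metabolism reaches 38.2% higher, and tryptophan and kynurenine genes 21% lower.

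Of the other lists, MHC class II and costimulation had 11 lower and 9 higher DARs of 89 peaks (12.4% and 10.1%). Chemokine receptors and adhesion had 43 and 35 of 315 (13.7% and 11.1%). Both also held more lower than higher DARs, at shares near or below the 13% and 13.4% of all peaks. By peaks in the gene body or 5 kb upstream, chemokine receptors and adhesion held 15 lower and 24 higher. The counts were 24 lower and 77 higher of 471 for alveolar macrophage identity, 28 and 57 of 318 for cholesterol and lipid handling, 18 and 32 of 234 for NRF2 and antioxidant genes, 29 and 60 of 302 for glycolysis, hypoxia and itaconate, and 11 and 15 of 187 for AP-1 and ATF factors. They were 16 and 44 of 272 for proteases and matrix, 11 and 28 of 163 for the inflammasome, 11 and 30 of 195 for bHLH-PAS, clock and hypoxia factors, 86 and 117 of 735 for myeloid lineage factors and 50 and 58 of 463 for the cell cycle, where peaks in the gene body or 5 kb upstream gave 17 lower and 6 higher. Chemokines had 2 and 10 of 102 (1.96% and 9.8%). Chemokines, AP-1 and ATF factors (5.88% and 8.02%) and the cell cycle (10.8% and 12.5%) were below the shares of all peaks in both directions. The other lists of this paragraph with more higher than lower DARs had 5.1% to 11.7% lower and 13.7% to 19.9% higher.

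Single peaks of these lists were named as DARs with a small p. The size of their change, and the number of libraries in which they were called, follow in part from that choice. A peak 2116 bases from the TSS of Ciita, the master regulator of MHC class II genes (chr16:10477464-10477943), held 1.35, 2.64 and 3.26 CPM in WT and 0.108, 0.192 and 0.327 CPM in AhR-KO, and was called in 6 WT and 0 AhR-KO lists. Its log2 fold change was -3.57 (SE 0.310, edgeR adjusted p 1.04e-10). Far from the TSS of the clock repressor gene Cry1, a peak rose from 3.81, 5.45 and 7.11 CPM to 12.7, 16.7 and 20 CPM (log2 fold change 1.56, edgeR adjusted p 1.09e-12). An intronic peak of the stress factor gene Atf3 rose from 4.19, 4.76 and 4.83 CPM to 9.18, 10.7 and 12.2 CPM (1.2, edgeR adjusted p 1.2e-11) and was called in 0 WT and 6 AhR-KO lists. Higher peaks also lay nearest to Nfkb1 (1.43), the cystine transporter gene Slc7a11 (1.5) and Il15 (1.27), and lower ones nearest to the sterol enzyme gene Lss (-1.46), the DNA sensor gene Aim2 (-0.63) and Rps15 (-2.57, in an exon of Dazap1). The Aim2 peak lost its call when any of 3 libraries was left out (-0.57 each). Further TSS peaks were higher at Serpinb2 (0.66), Fabp4 (0.73) and Cd5l (1.04) and lower at C1qa (-1.04) and Mmp2 (-0.67), and at Fabp4, Cd5l and C1qa the groups overlapped.

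Genes of ribosomal proteins, a reference list, had 20 lower and 14 higher DARs of 211 peaks (9.48% and 6.64%). In the gene body or 5 kb upstream the counts were 2 and 3. Of the 39 TSS peaks of these genes 0 were DARs in either direction, with a median log2 fold change of -0.03. Among myeloid lineage factors the TSS peaks of Cebpd (log2 fold change -0.65, SE 0.0496, edgeR adjusted p 1.35e-12) and Runx3 (-1.14, SE 0.152, edgeR adjusted p 3.83e-07) were lower, and 32 of the list's 117 higher DARs lay nearest to Runx1. The Myc TSS peak fell from 15.6, 21.1 and 22.9 CPM to 9.24, 9.88 and 12.1 CPM (log2 fold change -1.01, SE 0.0767, edgeR adjusted p 1.33e-12). Among chemokine receptors the TSS peaks of Cx3cr1 (-1.04) and Ccr7 (-1.53) were lower and that of Ccr3 (0.60) was higher. The Ccr3 peak lost its call with library totals (0.57), with DESeq2 (0.62), with the LPS libraries alone (0.59) and when any of 8 libraries was left out (0.47 to 0.61).

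The 596 lower DARs of at least 8-fold were faint, distal peaks whose level varied between the WT libraries. Of these, 291 lay between genes, 240 in introns, 62 reached an exon and 3 a TSS, and they were nearest to 532 different genes. Their median level in WT LPS replicates 1 to 6 was 3.45, 3.76, 1.18, 2.21, 1.77 and 4.16 CPM, and 0.179 to 0.361 CPM in the AhR-KO LPS libraries. Replicate 3 was the lowest WT library at 555 of the 596 peaks. In unstimulated cells the medians were 0.582 to 1.04 CPM in WT and 0.182 to 0.270 CPM in AhR-KO. Of the 596, 49.8% to 94.8% were in the peak list of each WT LPS library itself and 0% to 1.51% in that of each AhR-KO LPS library. The 596 were chosen for their low AhR-KO counts in these same libraries, so this gap follows from the choice. Without LPS 65.9% of the 596 were also lower DARs, against 12.5% of all tested peaks outside the Ahr region.

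Of the dendritic cell markers, Flt3 and Ccr7 had lower TSS peaks, while Zbtb46 had none that was a lower DAR. The peak over the TSS of Flt3, a growth factor receptor of dendritic cells and their precursors, held 14.5, 15.2, 8.56, 10.3, 8.12 and 12.8 CPM in WT LPS replicates 1 to 6, with the same 3 libraries (3, 4 and 5) lowest, and 3.75 to 5.06 CPM in AhR-KO (log2 fold change -1.29, SE 0.147, edgeR adjusted p 2.42e-08). The peak over the TSS of Ccr7, which guides dendritic cells to lymph nodes, held 8.39, 8.59, 3.27, 7.07, 4.47 and 10.5 CPM in WT and 1.75 to 4.47 CPM in AhR-KO, and the groups overlapped. Of the 5 markers 3 had a TSS peak, the summed level was 29.1 to 46.2 CPM in WT and 22.2 to 28.5 CPM in AhR-KO, and Clec9a and Xcr1 had none. The third, Zbtb46, had a faint TSS peak that was higher (median 0.836 CPM in WT and 2.4 CPM in AhR-KO, log2 fold change 1.52, edgeR adjusted p 1.08e-09) and a stronger one that was not a DAR (17.6 and 15.7 CPM, log2 fold change -0.19, edgeR adjusted p 0.0441). The Ido1 peak described above had the same 3 WT libraries lowest, at 23.3, 26.7, 10.9, 15.6, 13.8 and 22.5 CPM. So did the intronic Ahrr peak (7.61, 8.62, 4.82, 5.47, 5.46 and 7.92 CPM), the Ciita peak (2.88, 3.26, 1.35, 2.41, 2.04 and 2.93 CPM) and the TSS peaks of Haao, C1qa, Aldh1a3, Cx3cr1, Coch and Trib2, as well as the Aim2 peak, which with Ido1 and Ccr7 makes 11 of the 40 lower peaks named by rule. Replicates 3, 4 and 5 were the 3 lowest WT libraries at 93.6% of the 596 peaks, 45.1% of all lower DARs outside the Ahr region, 4.16% of higher DARs and 13.7% of all tested peaks there, an order looked for after the values were seen. The part of such cells in these results was not tested, and in bulk libraries fewer cells of a type and less accessible DNA per cell cannot be told apart. Without WT LPS replicate 3 the count of lower DARs of at least 8-fold was 802, and without WT LPS replicate 6 it was 454.

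**Figure D4:**
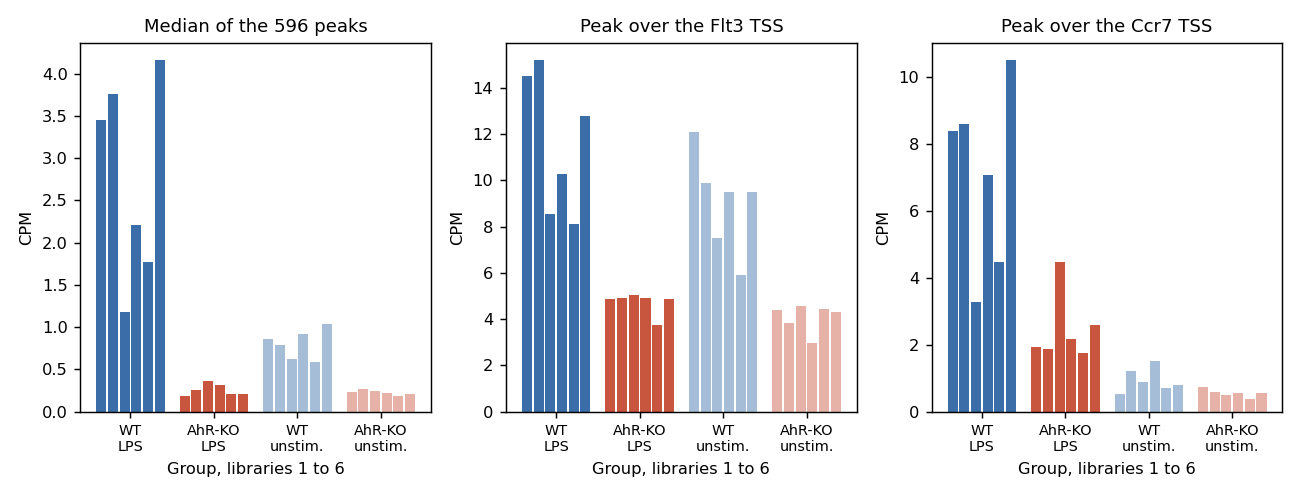
CPM (y axis) in each of the 24 libraries, grouped by genotype and treatment, for the median of the 596 lower DARs of at least 8-fold and for the peaks over the Flt3 and Ccr7 TSS. WT LPS replicate 3 has the lowest median (1.18 CPM) and replicate 6 the highest (4.16 CPM), while AhR-KO LPS libraries stay between 0.179 and 0.361 CPM.

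Motif matches in the central 300 bases are given as shares of peaks, without a test. AP-1 (TGANTCA) was in 18.1% of all tested peaks outside the Ahr region, 14.9% of lower DARs and 27.6% of higher DARs. C/EBP (TTGCNNAA) was in 15.8%, 13.8% and 18.6%, and the PU.1-IRF composite (GGAANNGAA) in 12.1%, 12.3% and 15.5%. The opposite order held for RUNX (TGTGGTTT), in 4.18%, 7.14% and 3.19%, and for NF-κB (GGGANTTTC), in 1.75%, 3.69% and 1.47%. Among the 596 lower DARs of at least 8-fold, RUNX was in 11.2% and NF-κB in 9.23%. The AhR core GCGTG was in 16.3% of all peaks, 14.9% of lower and 12.1% of higher DARs, but it was in 46.5% of TSS peaks, and away from a TSS the shares were 13.8%, 14.1% and 12%. The extended form TTGCGTG was in 0.784% of all peaks, 0.831% of lower and 0.509% of higher DARs. Both strands were searched, and the extended form contains the core. A match is a description of sequence, not of binding, and the median GC content was 47.0% in lower and 44.3% in higher DARs.

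**Figure D5:**
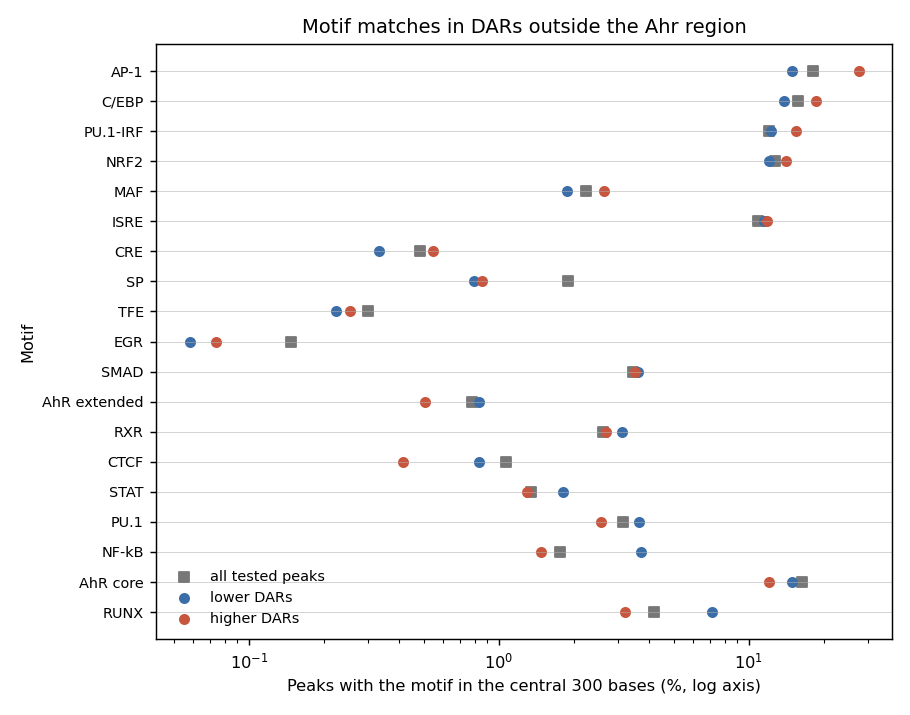
Percent of peaks with each of 19 motifs in their central 300 bases (x axis, log scale) for all tested peaks outside the Ahr region (grey squares), lower DARs (blue) and higher DARs (red). AP-1 reaches 27.6% of higher and 14.9% of lower DARs, and RUNX 7.14% of lower and 3.19% of higher DARs.

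Inside the Ahr region 388 of 2237 tested peaks were lower DARs (17.3%) and 343 higher (15.3%). Strong changes were more common than elsewhere, a difference given without a test: 4.29% of the peaks were DARs of at least 4-fold, 70 lower and 26 higher, against 1.88% outside. In the 5 Mb below the centre of Ahr this share was 7.99%, and in the 5 Mb at the lower edge of the region 1.68%. Strain-derived sequence and loss of AhR cannot be told apart in this region. In the Ahr gene itself, the peak over the TSS (chr12:35534070-35535364) held 19, 19.9 and 22.2 CPM in WT and 11.9, 15.1 and 16.8 CPM in AhR-KO (log2 fold change -0.45, edgeR adjusted p 4.52e-06, short of the fold limit). Of 13 peaks in the gene, 10 were higher DARs, with log2 fold changes of 0.72 to 3.72, and 1 was a lower DAR (chr12:35518178-35519384, -0.60, edgeR adjusted p 0.00678). The higher ones were low in WT, as at chr12:35513939-35516182 with 1.17, 1.45 and 2.18 CPM against 7.03, 9.47 and 11.9 CPM in AhR-KO.

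Of 101 TSS peaks in the region, 8 were lower DARs (7.92%) and 2 higher (1.98%). The lower ones with the smallest p were those of Coch (9.47, 13.2 and 14.7 CPM in WT, 4.90, 5.47 and 5.75 CPM in AhR-KO, log2 fold change -1.22, edgeR adjusted p 4.62e-12), the phosphatidate phosphatase gene Lpin1 (-0.64), Fam110c (-0.77) and the pseudokinase gene Trib2 (-0.74), and at Trib2 the groups overlapped. The 2 higher ones were the faint peaks of Sntg2 (0.427 to 1.25 CPM at the median) and 5730507C01Rik (0.428 to 0.828 CPM).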

How the data were processed

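ATAC-seq libraries of 4 groups of 6 were made by the authors with a transposase kit, and the count table was deposited as raw fragment counts in 184158 consensus peaks. Per the file headers featureCounts 2.0.1 counted read pairs with at least a fraction of 0.2 in a peak. The authors used the nf-core atacseq pipeline on mm10: reads were trimmed, aligned and filtered, broad peaks were called with MACS2 in each library, and peaks were merged. The aligner is not given in the sources used here. The deposited peak lists hold signal fold enrichment, -log10 p-value and -log10 q-value columns, called per library without pooling. They served only to count in how many lists a peak was called.

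Counts were tested with edgeR 4.0.16 (R 4.3.3): filterByExpr by group, TMM, quasi-likelihood fit of all 24 libraries by group, robust. DESeq2 1.42.0 was an alternative. On simulated data the procedure was tested before use. Peaks were assigned to the nearest protein-coding TSS in GENCODE vM21 on GRCm38, the assembly behind mm10. For a gene with several TSS peaks, the one with the smallest p is given. The named peaks were the 10 per direction with the smallest p away from a TSS and over one, among DARs with groups that did not overlap, the 8 genes per direction with the largest excess of DARs, up to 4 TSS peaks per direction in the Ahr region and up to 2 TSS peaks per direction in each list, or else 1 other DAR. Of the peaks this rule chose, 2 are not reported here and were not replaced. Flt3, Zbtb46 and Kmo, Il4i1 and the counts per gene within lists were chosen after values were seen. Members and lists were chosen with earlier results of these data known. The study gives 6 animals per group, and whether LPS and unstimulated cultures shared animals is not given in the sources used here. Alternatives were RLE factors, totals without scaling, DESeq2, the 12 LPS libraries alone, no filter, a replicate block and each LPS library left out.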

Additional observations from a re-analysis of the deposited data

Results flagged for a closer look

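At 36 of the 77 named peaks the genotype effect with LPS differed from that without LPS, by the interaction term of the edgeR fit and the same limits as for a DAR, which 10.4% of all tested peaks outside the Ahr region passed. Most of these peaks were chosen for a small p with LPS, which favours a larger effect with LPS than without, so the count is a description. This is a difference in log2 fold change, negative where AhR-KO lost more with LPS. Away from a TSS it was -1.13 at Cpb1, -1.34 at Alox5, -0.95 at Ahrr, -1.31 at Dhrs3, -1.32 at Sstr4, -1.21 at Shisa5, -1.73 at Fam53b, -1.22 at Hmgb1, -0.92 at Ldhd and -0.84 at Tiam2. Over a TSS it was -0.86 at Ccno, -0.78 at Pknox2, -0.89 at Bank1, -0.94 at Cd24a, -1.13 at Gsc, -0.68 at Tspan14, -0.83 at Runx3 and -0.69 at Myc, and in the Ahr region -0.90 at Coch and -0.68 at Lpin1. Positive differences away from a TSS were 1.27 at Gpat3, 1.42 at Dpp10, 1.07 at Schip1, 0.59 at Nrp1, 0.86 at Nfkb1, 0.70 at Mitf, 1.09 at Atf3 and 1.24 at Cry1. Over a TSS they were 0.88 at Atp13a4, 0.63 at Phf11d, 1.61 at Prkg2, 0.94 at Serpinb2, 0.64 at Hpgd, 1.64 at Ccl5, 1.16 at Ifi44 and 1.60 at Nos2.

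Single libraries stood apart from the other 5 of their group at 9 named peaks, by Dixon's test, which flags about 1 group in 20 by chance. Both LPS groups were looked at for the 77 named peaks, so several such flags are due by chance alone. AhR-KO LPS replicate 4 was highest at Fam110c (4.51 CPM) and Atp13a4 (6.85 CPM), and AhR-KO LPS replicate 3 at Ccr7 (4.47 CPM) and Myc (12.1 CPM). WT LPS replicate 3 was highest at Adra1a (7.41 CPM) and Slc7a2 (6.40 CPM). AhR-KO LPS replicate 5 was lowest at Inhba (61.9 CPM), AhR-KO LPS replicate 6 at Cgref1 (21.4 CPM) and AhR-KO LPS replicate 1 at Nfkb1 (10.8 CPM). WT LPS replicate 6 had the lowest summed level on chromosome Y (86.7 CPM).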

How the results depend on the processing

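The counts of DARs stayed within 1.5 times the reported ones with RLE factors, library totals, DESeq2, the LPS libraries alone, no filter, the replicate block and each LPS library left out. Leaving out 1 library gave 43119 to 48349 DARs over all peaks, 42416 to 47585 outside the Ahr region, 703 to 764 inside it and 886 to 977 over a TSS outside it. A fold limit of 2 gave 19841, 19472, 369 and 266, fewer by construction. The region of 10 Mb on each side of Ahr gave 472 DARs, and peaks within 1 kb of a TSS gave 1501. Outside the Ahr region 47.4% to 52.2% of the DARs were lower across the fits at the 1.5-fold limit, so neither direction was in excess in all of them, while over a TSS 76.9% to 80.9% were lower, and 72.8% within 1 kb of one.

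Chosen after seeing the data, the count of lower DARs of at least 8-fold was 454 to 802 with 1 library left out. The higher ones numbered 0 with library totals and with the replicate block, and 0 to 4 with 1 library left out. The median log2 fold change of all peaks was -0.004 to 0.036 across scalings. The number of gene lists with more lower than higher DARs was 6 by peaks in the gene body or 5 kb upstream, against 7, as chemokine receptors and ribosomal proteins turned to more higher and the cell cycle to more lower DARs, and 10 of 19 motifs had a larger share in higher DARs with a window of 150 bases, against 10. Of the 77 named peaks, 75 kept their call without any 1 library; Ccr3 and Aim2 did not.

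The replicate block gave 46432 DARs over all peaks, 45698 outside the Ahr region, 734 inside it and 929 over a TSS, and it moved 0 of the 77 named peaks across the limits. Equal replicate numbers did not pair the genotypes: 3 of 12 LPS libraries correlated best with their own number in the other genotype. Within a genotype, LPS and unstimulated libraries of one number correlated at 0.058 to 0.367 in WT and 0.011 to 0.228 in AhR-KO, 7 of 12 best with their own number in each, a hint from the data and not from the labels. With that number as a block, chosen after seeing the data, the difference between genotype effects passed the limits at 37 named peaks, 35 of them in common with the 36. Nrp1 lost the call (0.58), C1qa and Ccr3 gained it, and outside the Ahr region 23051 peaks passed against 17862.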
